A study of Mus musculus with 23 samples.

Results

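The genes described here are Mt1, Mt2, Mtf1 and Slc30a1, which bind, sense and export zinc in mouse cells. They were chosen by symbol, as the 4 of 55487 genes in the count table whose Ensembl identifiers carry these names, and all 4 were among the 15748 genes with enough counts to be tested. RNA-seq was done on primary mouse embryonic fibroblasts (MEFs), untransformed connective tissue cells grown from mid-gestation embryos of the FVB/NJ strain. Cells carried the unmodified glucocorticoid receptor (GRwt/wt), a threonine in place of an alanine where its DNA-binding domains pair (GRD/D), an alanine in place of an isoleucine in the domain that binds the ligand (GRL/L), or both changes in the same protein (GRD+L/D+L). In lists these are the D, L and D+L mutants. All alleles were homozygous and present in every cell of the embryo, the L and D+L alleles were made by genome editing followed by backcrossing, and separate mice gave the cultures of each genotype. Cells received solvent (vehicle) or 10 nM of the synthetic glucocorticoid dexamethasone (Dex) for 5 h. Each of the 8 groups held 3 libraries, except GRD/D vehicle with 2, which gave 23 libraries. The medium of all cultures contained serum and β-mercaptoethanol.

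Metallothioneins are small cysteine-rich proteins that hold zinc, copper and cadmium, and they are the best known buffer of zinc in the cytoplasm. MTF1 is the transcription factor that senses free zinc. When zinc binds its zinc fingers it settles on metal response elements (MREs) in the promoters of Mt1, Mt2 and Slc30a1 and raises their transcription. SLC30A1, also called ZnT1, is the zinc exporter of the plasma membrane. Mt1 and Mt2 are also classical glucocorticoid target genes, and known glucocorticoid response elements of the mouse locus lie upstream of Mt2, farther away than the promoter window searched here.

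In GRCm38 coordinates, Mt2 (ENSMUSG00000031762, chr8:94172664-94173568) and Mt1 (ENSMUSG00000031765, chr8:94179082-94180327) are neighbours on the plus strand. Mtf1 (ENSMUSG00000028890, chr4:124802104-124849800) and Slc30a1 (ENSMUSG00000037434, chr1:191906767-191913247) also lie on plus strands. Promoters of all 4 genes were found in the RefSeq table for GRCm38.p6, each from 250 bases before the listed start of transcription to 50 bases from it on. These listed starts differ from the first gene bases given above. For Mtf1 the bases before the listed start end at chr4:124802548, inside the annotated gene. The starts used in these cells were not measured. They were searched on both strands for the MRE core, written as TGCACNC or TGCGCNC. The 250 bases before the starts of Mt2 (chr8:94172368-94172617, plus strand) and Mt1 (chr8:94178839-94179088, plus strand) are shown because these 2 genes carried the Dex difference described below, with matches to the MRE core in capitals, 5′ to 3′:
Mt2: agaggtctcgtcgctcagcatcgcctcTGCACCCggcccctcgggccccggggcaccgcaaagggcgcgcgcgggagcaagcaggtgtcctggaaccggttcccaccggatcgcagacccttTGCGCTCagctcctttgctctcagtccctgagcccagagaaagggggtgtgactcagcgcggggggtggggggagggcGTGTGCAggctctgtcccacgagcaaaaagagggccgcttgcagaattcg
Mt1: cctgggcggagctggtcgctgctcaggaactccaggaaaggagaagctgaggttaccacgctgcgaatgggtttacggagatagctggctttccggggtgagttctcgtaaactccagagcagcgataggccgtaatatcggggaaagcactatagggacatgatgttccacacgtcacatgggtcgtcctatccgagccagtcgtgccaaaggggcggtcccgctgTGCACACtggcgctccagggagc

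Over the whole window of 300 bases, Mt2 had 4 matches, of which 3 lay before the start, and Mt1 had 3, of which 1 lay before it. That match of Mt1 spanned 23 to 17 bases before the start. The side on which a match lies rests on the start listed in the RefSeq table. Slc30a1 had 2 matches, one of them 43 to 37 bases before its start, and the promoter of Mtf1 itself had 0. Of 32851 promoters of the same length, 25.7% held at least 1 match, 7.11% at least 2, 1.97% at least 3 and 0.517% at least 4. The letters AGAACA, a core of glucocorticoid receptor binding sites, were found on either strand in 19% of all promoters and in 1 of these 4, that of Mtf1. A match is a run of letters and not a measured binding site, and a window without a match says nothing of the factor.

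Totals ranged from 16452539 to 23117080 counts per library. Levels are given in CPM, counts-per-million of the library size after TMM scaling. The fit was edgeR's quasi-likelihood test over all 23 libraries, log2 fold changes (LFC) carry standard errors (SE), and calls required an adjusted p (Benjamini-Hochberg, over all 15748 genes) no larger than 0.05 together with an absolute LFC of at least 1. Unless another tool is named, every adjusted p below is from this test. The MEF label was borne out by 7 fibroblast markers, including Col1a1 and Pdgfra, which summed to between 26166 and 52772 CPM in every library. Against this, 4 endothelial and 4 epithelial markers summed to at most 20.8 and 5.30 CPM. A pair of vehicle libraries of GRwt/wt stood apart. Replicate 1 had a highest Spearman correlation of 0.916 with any other library, against at least 0.973 for all others, and it also had the lowest Nr3c1, the gene of the receptor, at 4.08 CPM. Its deviations from the median of each gene followed the GC content of transcripts, with a Spearman correlation of 0.684. This correlation was 0.319 in GRwt/wt Dex replicate 1 and between -0.195 and 0.104 in the other libraries. In GRwt/wt vehicle replicate 3 the 10 macrophage markers summed to 4952 CPM, where the remaining 5 GRwt/wt libraries had 15.2 to 100.2 CPM and the mutants 273 to 1739 (D), 310 to 772 (L) and 6.04 to 82.9 (D+L). Gene counts do not show point mutations, so the genotypes were not checked here.

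Per length of transcript, Mt1 and Mt2 stood far above the other zinc genes. Averaged over all libraries, Mt1 reached 297 CPM and Mt2 206 CPM, on 3228 to 13361 and 1667 to 12726 counts, and the importer Slc39a1 came next with 175 CPM. Divided by all annotated exon bases, Mt2 had 351 and Mt1 239 CPM per kb, while Slc30a1 reached 4.14 and Mtf1 2.70 CPM per kb. The order of the pair rested on the length used, since annotated Mt1 transcripts that keep introns make its exon bases, 1246, cover the whole gene. With the spliced length of the principal transcript, 549 bases for Mt1 and 511 for Mt2, Mt1 was the higher at 542 against 404 CPM per kb. Mtf1 had between 310 and 590 counts per library and Slc30a1 between 166 and 615. An antisense gene, Gm45774, covers 73.5% of the exon bases of Mt2, and antisense or opposite-strand genes cover 8.09% of Mtf1 and 8.92% of Slc30a1. Averaged over all libraries, Gm45774 had 0.379 CPM and the partner of Slc30a1 0.655 CPM. That of Mtf1, 1110065P20Rik, had 28.7 CPM against 24.1 CPM for Mtf1 itself. Since the strand setting of the counting was not given in the sources used here, reads of such partners cannot be told apart. Whether reads in an overlap were dropped is also not known. The level of Mt2 and the share of Mt1 given below carry this limit.

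Mt2 was highest in GRwt/wt cells treated with Dex. In GRwt/wt vehicle the 3 libraries had 206, 297 and 161 CPM, and with Dex 377, 596 and 377 CPM. In GRD/D the vehicle libraries had 263 and 230 CPM, and those with Dex 236, 169 and 240 CPM. The values of GRwt/wt with Dex were above those of every other library, and the GRD/D groups overlapped. In GRL/L, Mt2 was at 149, 112 and 146 CPM in vehicle and at 148, 111 and 147 CPM with Dex. In GRD+L/D+L it was at 149, 107 and 152 CPM in vehicle and at 130.2, 95.8 and 143 CPM with Dex. Each of these 12 libraries lay below each of the 11 libraries of the GRwt/wt and GRD/D genotypes. In RNA from whole cultures, fewer cells that express a gene and less of its RNA per cell cannot be told apart.

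Mt1, its neighbour, was also highest in GRwt/wt with Dex. It was at 392, 436 and 238 CPM in GRwt/wt vehicle and at 503, 626 and 467 CPM in GRwt/wt with Dex. GRD/D had 374 and 333 CPM in vehicle, and 348, 266 and 342 CPM with Dex. The groups of GRwt/wt did not overlap, the lowest Dex library standing above the highest vehicle library, whereas those of GRD/D did. GRL/L had 216, 178 and 207 CPM in vehicle and 218, 179 and 206 CPM with Dex. GRD+L/D+L had 200.4, 231 and 254 CPM in vehicle and 194, 203 and 229 CPM with Dex. The 12 libraries of these genotypes ranged from 178 to 254 CPM, and of the GRwt/wt and GRD/D libraries only GRwt/wt vehicle replicate 3, at 238 CPM, fell within that range.

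Mtf1, the zinc sensor, ran the other way across genotypes on this scale. It was at 17.5, 19.3 and 22.9 CPM in GRwt/wt vehicle and at 19.2, 20.2 and 19.3 CPM with Dex. In GRD/D it was at 20.2 and 24.3 CPM in vehicle and at 25.0, 19.0 and 23.4 CPM with Dex. Vehicle and Dex overlapped in both genotypes. GRL/L had 29.6, 29.6 and 30.5 CPM in vehicle, the highest 3 values of all 23 libraries, and 27.7, 24.9 and 25.2 CPM with Dex. GRD+L/D+L had 28.6, 25.6 and 26.0 CPM in vehicle and 25.8, 24.1 and 25.5 CPM with Dex.

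Slc30a1, the exporter, had its widest spread in GRwt/wt vehicle. The libraries of that group had 9.16, 18.7 and 27.9 CPM, which are the lowest and the highest values of the whole series with a value between them, and those with Dex 21.1, 18.7 and 18.8 CPM. GRD/D had 21.04 and 21.4 CPM in vehicle and 22.3, 20.3 and 18.1 CPM with Dex. The lowest value belonged to the library with the low correlation to the others, and the highest to the library with the macrophage markers. GRL/L had 26.4, 25.5 and 25.2 CPM in vehicle and 27.7, 23.7 and 24.9 CPM with Dex. GRD+L/D+L had 25.9, 16.3 and 21.6 CPM in vehicle and 23.3, 19.8 and 21.4 CPM with Dex.

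**Figure D1:**
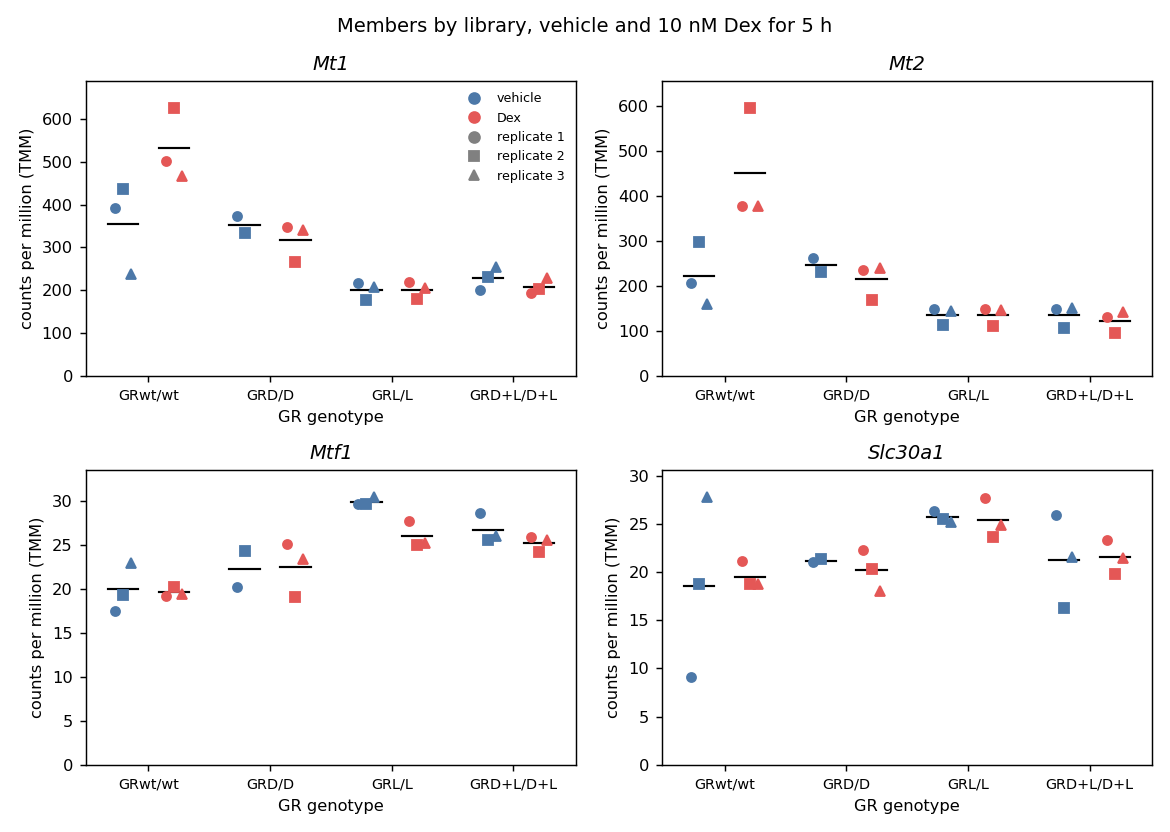
Level of each gene in each of the 23 libraries (vertical axis, CPM after TMM scaling, starting at 0) by GR genotype (horizontal axis), with vehicle in blue, 10 nM Dex in red, a marker shape per replicate number and a bar at the group mean. Mt1 and Mt2 are highest in the 3 GRwt/wt Dex libraries, and Slc30a1 spans 9.16 to 27.9 CPM within GRwt/wt vehicle.

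Ranked by group mean, neighbouring groups mostly overlapped. For Mt1, the non-overlapping steps were from GRwt/wt Dex (532 ± 83.4 CPM, mean ± SD, n = 3) to GRwt/wt vehicle (355 ± 104, n = 3) and from GRD/D Dex (319 ± 45.9, n = 3) to GRD+L/D+L vehicle (229 ± 27.1, n = 3). For Mt2, they were from GRwt/wt Dex (450.4 ± 126, n = 3) to GRD/D vehicle (247 ± 23.3, n = 2) and from GRD/D Dex (215 ± 39.6, n = 3) to GRD+L/D+L vehicle (136 ± 25.3, n = 3). By group means, both metallothioneins thus fell into 3 tiers, with GRwt/wt Dex on top, GRwt/wt vehicle and the D mutant between, and the L and D+L mutants at the bottom. For Mtf1, only GRL/L vehicle (29.9 ± 0.497, n = 3) was clear of the group below it, GRD+L/D+L vehicle (26.7 ± 1.61, n = 3). For Slc30a1, the only such step was from GRL/L Dex (25.4 ± 2.04, n = 3) to GRD+L/D+L Dex (21.5 ± 1.75, n = 3).

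The question for Dex was whether a low dose reaches the zinc genes through each form of the receptor. In GRwt/wt cells, Mt2 was 2.03-fold higher with Dex (LFC 1.03, SE 0.24) and Mt1 1.497-fold higher (LFC 0.58, SE 0.19), without passing the test across all genes. The adjusted p was 0.104 for Mt2 and 0.176 for Mt1 in edgeR's quasi-likelihood test (unadjusted 0.000581 and 0.00645). In this contrast 0.159% of all tested genes were called, all 25 of them higher. Both metallothioneins had every Dex library above every vehicle library, as had 4.98% of all tested genes. Mtf1 and Slc30a1 had LFCs of -0.03 (SE 0.12, adjusted p = 0.933) and 0.07 (SE 0.26, adjusted p = 0.908). The metallothionein result depended on the tool, because DESeq2 gave similar LFCs with lower adjusted p, 0.00477 for Mt2 (LFC 1.05) and 0.0413 for Mt1 (LFC 0.61). DESeq2 also passed more genes in this contrast, 3.66% of all tested genes by adjusted p alone and 1.82% with the LFC as well, the latter 121 higher and 165 lower. Over all alternatives tried, the adjusted p ran from 0.00195 to 0.970 for Mt2 and from 0.0309 to 0.970 for Mt1, with both LFCs above 0 throughout. In the same contrast all 10 macrophage markers had LFCs below 0 in edgeR (median -5.19, all with an unadjusted p under 0.05). None of them was called by edgeR, but 8 were called by DESeq2. GRwt/wt vehicle replicate 3 held them at 4952 CPM, and this library also had the lowest Mt1 and Mt2 of its group. Without it Mt2 had an LFC of 0.88 (adjusted p = 0.0788) and Mt1 of 0.40 (adjusted p = 0.167). The result also moved with single libraries, since without GRwt/wt vehicle replicate 2 the adjusted p of Mt2 in edgeR was 0.0211 (LFC 1.28) and without GRwt/wt Dex replicate 2 it was 0.371 (LFC 0.77).

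For scale, the established glucocorticoid target Fkbp5, a co-chaperone of the receptor, rose from 31.0 ± 12.9 to 348 ± 36.9 CPM in the same libraries (n = 3 each, LFC 3.49, SE 0.27, adjusted p = 2.671e-06, edgeR). Tsc22d3, which encodes the anti-inflammatory protein GILZ, rose from 54.2 ± 8.26 to 205 ± 35.0 CPM (n = 3 each, LFC 1.92, SE 0.27, adjusted p = 0.00272, edgeR). Of 6 glucocorticoid targets listed for comparison, 4 were called in GRwt/wt, the others of these being the clock gene Per1 (LFC 1.85) and the transcription factor Zbtb16 (LFC 6.39, from at most 0.317 CPM in vehicle). With only the GRwt/wt libraries fitted, Fkbp5 and Tsc22d3 lost the call as well (adjusted p = 0.456 each). This list was drawn up from genes known to respond and with earlier results of these data known, so its count is no independent evidence. Of the other 2 listed, the transcription factor Klf9 had an LFC of 1.498 (adjusted p = 0.104), and the phosphatase Dusp1 passed the adjusted p alone (LFC 0.98, adjusted p = 0.0335). The LFC of Mt2 was thus smaller than those of Klf9 and the 4 called genes, which a call had selected for size, and close to that of Dusp1, and that of Mt1 was smaller.

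In the mutants, no gene of the 4 passed the test with Dex, and in each mutant 0% of all tested genes were called (154, 43 and 54 genes had an unadjusted p under 0.05 in the D, L and D+L mutants, and DESeq2 called 2, 0 and 5). The established targets were not all flat in GRD/D, where Fkbp5 went from 31.9 ± 1.01 CPM (n = 2) in vehicle to 102 ± 13.7 CPM (n = 3) with Dex (LFC 1.68, SE 0.29, adjusted p = 0.137, unadjusted 1.735e-05) and Per1 from 16.5 ± 0.396 CPM (n = 2) to 41.9 ± 3.58 CPM (n = 3; LFC 1.35, SE 0.21, adjusted p = 0.0999, unadjusted 6.344e-06). Both had every Dex library above both vehicle libraries, as had 10.8% of all tested genes. In the L and D+L mutants Fkbp5 had LFCs of 0.12 and 0.07 and Per1 of 0.14 and -0.06 (adjusted p = 1 each). Mt2 had LFCs of -0.20 (SE 0.27), -0.0042 (SE 0.24) and -0.14 (SE 0.24) in the D, L and D+L mutants. Mt1 had LFCs of -0.15 (SE 0.21), 0.0041 (SE 0.19) and -0.13 (SE 0.19). All of these adjusted p-values were 1 in edgeR's test. Over all alternatives the LFC of Mt1 with Dex in GRD/D ran from -0.49 to -0.03. Over the 8 pairs of equally numbered vehicle and Dex libraries of the mutants, the log2 ratio of Mt2 ran from -0.44 to 0.016 with 7 pairs below 0, and that of Mt1 from -0.33 to 0.014 with 6 below 0. No label says that equal numbers mark a shared culture. The lowest ratios of both genes were in GRD/D, whose pairs did not deviate together throughout (correlations 0.238 and -0.168). Such counts of pairs are descriptions only. Mtf1 had LFCs between -0.20 (SE 0.12, GRL/L) and 0.02 in the mutants, with 7 of the 8 pairs below 0 and a range of -0.35 to 0.31, and Slc30a1 between -0.07 and 0.02.

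The differences between the responses were tested directly. For Mt2 the Dex response minus that of GRwt/wt was an LFC of -1.22 (SE 0.36), -1.03 (SE 0.34) and -1.17 (SE 0.34) in the D, L and D+L mutants. Unadjusted p-values were 0.0034, 0.00796 and 0.00331, and edgeR's adjusted p-values were 0.688, 0.785 and 0.969. The corresponding differences for Mt1 were -0.73 (SE 0.28), -0.58 (SE 0.27) and -0.71 (SE 0.27), with adjusted p-values of 0.688, 0.790 and 0.969. None of the 4 genes was called in this fit, among 0%, 0.0254% and 0.0254% of all tested genes in the same order, and over all alternatives the adjusted p of Mt2 ran from 0.0179 to 1. Over the same alternatives the differences of Mt1 ran from -1.36 to -0.56 (D), -0.82 to -0.40 (L) and -0.97 to -0.53 (D+L). The 10 macrophage markers had differences above 0 in all 3 contrasts (medians 6.00, 5.27 and 5.19, 0 called, with 10, 10 and 9 at an unadjusted p under 0.05). Without GRwt/wt vehicle replicate 3, which held them, the differences of Mt2 were -1.08, -0.88 and -1.03 (adjusted p = 0.293, 0.360 and 0.377). The 3 differences share the GRwt/wt libraries, so their like size is not independent. For Mtf1 they were 0.04, -0.18 and -0.06, and for Slc30a1 -0.14, -0.09 and -0.05.

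**Figure D2:**
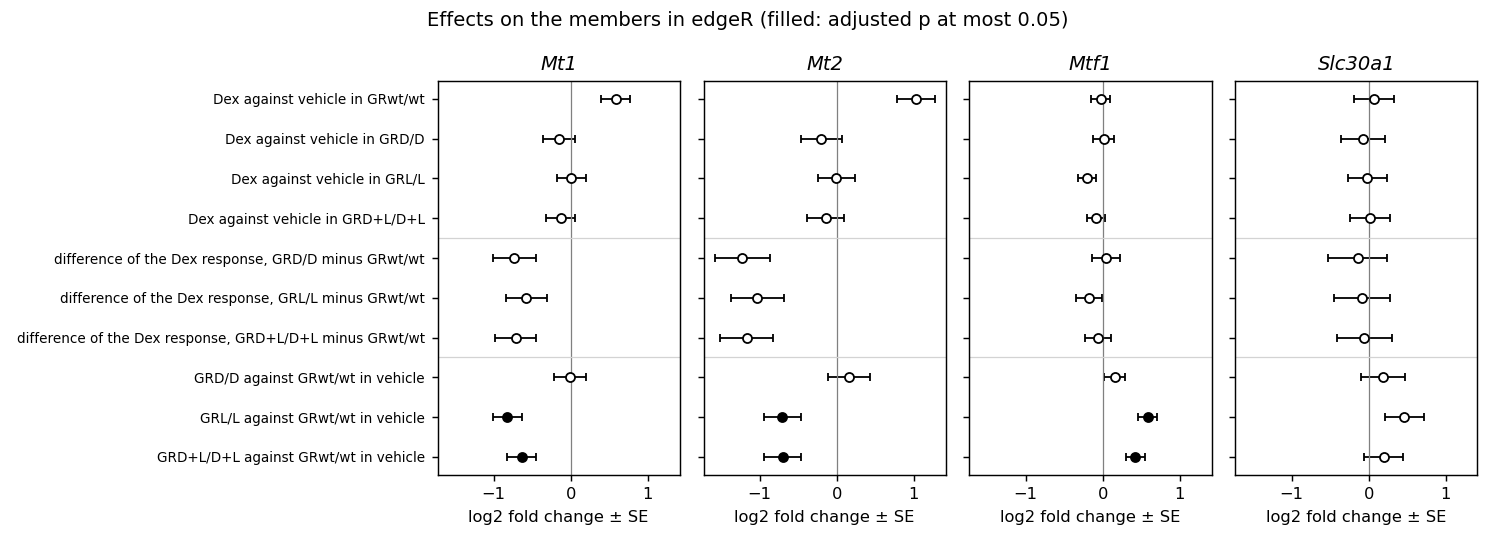
Log2 fold change with its SE (horizontal axis) of each gene in the 10 contrasts of the fit (vertical axis), from top to bottom Dex against vehicle per genotype, the difference of that response from GRwt/wt, and the mutants compared with GRwt/wt without Dex; filled points have an edgeR adjusted p of at most 0.05. The filled points are Mt1, Mt2 and Mtf1 in vehicle of the L and D+L mutants, and the Dex response of Mt2 in GRwt/wt, at 1.03, is open. Under a GC content and length correction the 6 filled effects did not pass, and Mtf1 was below 0, as was the median of all genes.

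Without Dex, the metallothioneins were lower and Mtf1 was higher in the L and D+L mutants than in GRwt/wt by adjusted p. However, none of these differences passed under a correction for GC content and length given below. The LFC of Mtf1 was below 0 there, as was the median LFC of all genes. In GRL/L, Mt1 had an LFC of -0.83 (SE 0.19, adjusted p = 0.00511), Mt2 of -0.70 (SE 0.24, adjusted p = 0.0453) and Mtf1 of 0.59 (SE 0.12, adjusted p = 0.00276). For the D+L mutant the LFCs were -0.64 (SE 0.19, adjusted p = 0.0263) for Mt1, -0.70 (SE 0.24, adjusted p = 0.0496) for Mt2 and 0.42 (SE 0.12, adjusted p = 0.0222) for Mtf1. None reached the absolute LFC of 1 that a call needed. By adjusted p alone 23% of all tested genes differed in GRL/L, 20.4% did in GRD+L/D+L, and 7.78% and 8.32% were called, so that such differences were common between these cultures. In the same contrasts all 10 macrophage markers had LFCs below 0, with a median of -1.50 and 0 called in the L mutant and a median of -5.20 and 8 called in the D+L mutant. Their summed level was 16.6 to 4952 CPM in GRwt/wt vehicle, 321 to 741 CPM in GRL/L vehicle and 7.23 to 82.9 CPM in GRD+L/D+L vehicle. Slc30a1 had LFCs of 0.47 (SE 0.26, adjusted p = 0.192) and 0.19 (SE 0.26, adjusted p = 0.606).

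Values of all 3 libraries of GRL/L vehicle were below those of GRwt/wt vehicle for Mt1 and Mt2 and above them for Mtf1. The same held in GRD+L/D+L for Mt2 and Mtf1, while Mt1 overlapped. Among all tested genes, 18.4% were lower and 19.6% higher in this way in GRL/L, with 13.9% and 13.4% in GRD+L/D+L. In GRD/D vehicle, where 0.0127% of genes passed the adjusted p and 0.00635% were called, the 4 genes had LFCs between -0.01 (Mt1, adjusted p = 0.986) and 0.19 (Slc30a1, adjusted p = 0.733). Both comparisons, of the L and the D+L mutant, use the same GRwt/wt vehicle libraries, and genotype and set of cultures cannot be told apart.

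Most of these vehicle differences depended on the libraries, scaling or filter used, while those of Mt1 and Mtf1 in GRL/L were lost only under a correction of the reads. GRwt/wt vehicle replicate 3, the library with macrophage markers, had the lowest Mt1 and Mt2 and the highest Mtf1 and Slc30a1 of its group, and the part of these markers in the levels was not tested. Without it, Mt1 in GRL/L passed both criteria (LFC -1.01, adjusted p = 0.000278), and Slc30a1 passed the adjusted p in GRL/L (LFC 0.92, adjusted p = 0.00705) as well as GRD+L/D+L (LFC 0.65, adjusted p = 0.0450). Without GRwt/wt vehicle replicate 2, Mt2 no longer passed (LFC -0.46, adjusted p = 0.173 in the L mutant and LFC -0.45, adjusted p = 0.183 in the D+L mutant). Mt2 was also lost in the L and D+L mutants with RLE scaling (adjusted p = 0.0555 and 0.0640), no filter (0.0811 and 0.110), at least 10 counts in every library (0.0551 and 0.0626) and only the genotypes compared (0.101 and 0.210), and in 34 fits over both mutants that left out 1 library of any genotype. In the D+L mutant, Mt1 was lost with no filter (0.0789) and only the genotypes compared (0.166), and Mtf1 with upper-quartile scaling (0.0799), no filter (0.0725) and only the genotypes compared (0.121). A correction of each library for the GC content and length of transcripts ended all 6 of these differences. It left Mt1 at -0.50 (adjusted p = 0.114) and -0.23 (adjusted p = 0.518), Mt2 at -0.10 (adjusted p = 0.839) and -0.04 (adjusted p = 0.949), and Mtf1 at -0.15 (adjusted p = 0.640) and -0.22 (adjusted p = 0.494), against a median of all genes of -0.18 and -0.09 under it. Over all alternatives, the adjusted p in the L and D+L mutants ran from 0.000278 to 0.114 and 0.00197 to 0.518 for Mt1, from 0.0170 to 0.839 and 0.0223 to 0.949 for Mt2, from 1.514e-05 to 0.640 and 0.00227 to 0.494 for Mtf1, and from 0.00705 to 0.595 and 0.0450 to 0.910 for Slc30a1.

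Within a library, the share of Mt1 in the counts of Mt1 plus Mt2 does not depend on scaling. It was 65.5%, 59.5% and 59.6% in GRwt/wt vehicle and 57.1%, 51.2% and 55.3% in GRwt/wt with Dex. The 3 Dex libraries lay below all other libraries, so that Mt2 made up more of the metallothionein mRNA there, although the 95% confidence interval (exact Clopper-Pearson) of the highest of them, 56.4% to 57.8%, overlapped that of GRD+L/D+L vehicle replicate 1, 56.2% to 58.5% around 57.4%. Intervals cover counting error only. The summed level of both genes was 598, 733 and 399 CPM in GRwt/wt vehicle and 880.1, 1222 and 844 CPM with Dex.

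In the mutants the share did not move with Dex beyond its spread. It was 58.9 ± 0.318% (SD, n = 2) in GRD/D vehicle and 59.8 ± 1.18% (n = 3) with Dex, and 59.7 ± 1.39% and 59.8 ± 1.68% in GRL/L (n = 3 each). In GRD+L/D+L it was 62.8 ± 5.53% and 63.1 ± 4.28% (n = 3 each), the widest spread of the 4 genotypes. Its replicate 2 stood high in both treatments, at 68.4% in vehicle and 68.0% with Dex. No test was made of this share.

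**Figure D3:**
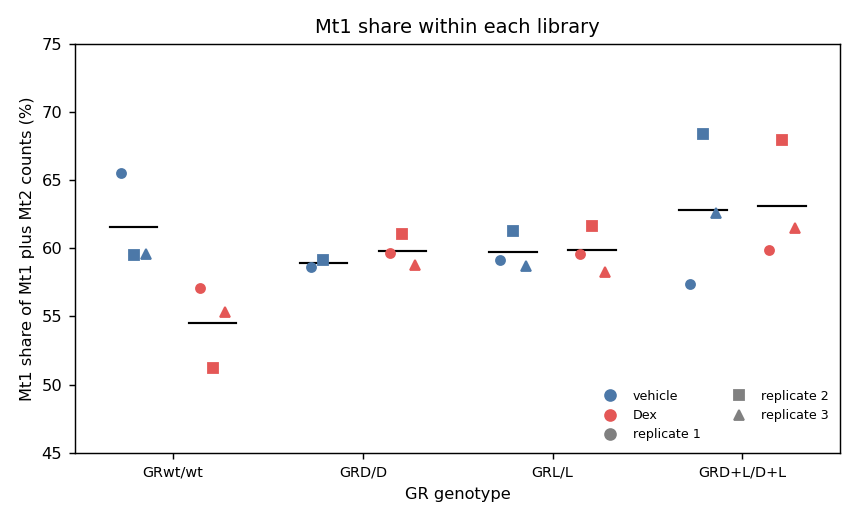
Share of Mt1 in the summed counts of Mt1 and Mt2 (vertical axis, percent, drawn from 45 to 75) in each library by GR genotype (horizontal axis), with vehicle in blue, 10 nM Dex in red, a marker shape per replicate number and a bar at the group mean. The 3 GRwt/wt Dex libraries lie at 51.2% to 57.1%, below every other library, and replicate 2 of GRD+L/D+L lies near 68% in both treatments.

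A wider list of 29 zinc genes, the metallothioneins, Mtf1 and the SLC30 exporters and SLC39 importers, was read beside these genes, and 22 of them were tested. With edgeR, 0 of the 22 met both criteria in any contrast, and DESeq2 called Mt2 with Dex in GRwt/wt and Slc30a4 in GRL/L vehicle, where it called 1.82% and 9.79% of all tested genes. At an unadjusted p under 0.05 there were 5 genes with Dex in GRwt/wt and 0 in each mutant, 4, 4 and 3 in the differences for D, L and D+L, and 1, 8 and 8 in vehicle. Of all tested genes, 15.6% had such a p with Dex in GRwt/wt, 0.273% to 0.978% in the mutants, 7.11%, 6.29% and 5.05% in the differences, and 12.4%, 37.1% and 35.6% in vehicle. The 8 of 22 in vehicle of the L and D+L mutants were thus near the share of all genes. With Dex in GRwt/wt their median LFC was 0.04, with 12 of 22 above 0, against a median of -0.01 over all genes. Without GRwt/wt vehicle replicate 3 that list median was 0.43, against 0.07 for all genes. In vehicle the list medians were 0.16, -0.03 and 0.0020 in the D, L and D+L mutants, against -0.06, -0.05 and -0.05 over all genes. By adjusted p alone, 1 gene was higher (Mtf1) and 4 were lower in GRL/L, namely Mt1, Mt2, Slc39a11 (LFC -0.41, adjusted p = 0.0291) and Slc39a13 (LFC -0.36, adjusted p = 0.0464). In GRD+L/D+L, 1 was higher (Mtf1) and 3 were lower, Mt1, Mt2 and Slc39a11 (LFC -0.62, adjusted p = 0.00372). These 5 and 4 of 22 genes were near the shares of all tested genes that passed, 23% and 20.4%. The 2 SLC39 genes were picked out after their values were seen.

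By level per length of all exon bases, Mt2 and Mt1 were followed by Slc39a1 at 74.2 CPM per kb and Slc39a6 at 29.9, importers of the plasma membrane, and then by Slc39a13 at 15.9 and Slc30a4 at 15.5, transporters of intracellular vesicles. Mt3, the metallothionein best known from brain, had at most 44 counts in a library, and Mt4 and 6 transporters had too few counts to be tested. Among genes picked out after their values were seen, the importer Slc39a14 had an LFC of 0.76 with Dex in GRwt/wt (SE 0.20, adjusted p = 0.137). It was at 44.6, 45.4 and 50.6 CPM in vehicle and at 53.5, 118 and 66.8 CPM with Dex, and without Dex replicate 2 its LFC was 0.36 (adjusted p = 0.392). Without Dex replicate 1 it was called (LFC 1.01, adjusted p = 0.0261), and with DESeq2 it passed the adjusted p (LFC 0.79, adjusted p = 0.0134), as did 3.66% of all tested genes. Mt3, also named after its values were seen, had an LFC of 1.99 with Dex in GRwt/wt and an SE of 1.05 (adjusted p = 0.378). Of the 10 protein-coding neighbours of Mt2 and Mt1, 5 on each side, 8 were tested. With Dex in GRwt/wt edgeR and DESeq2 called 0 of them, and 2 had an unadjusted p under 0.05.

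**Figure D4:**
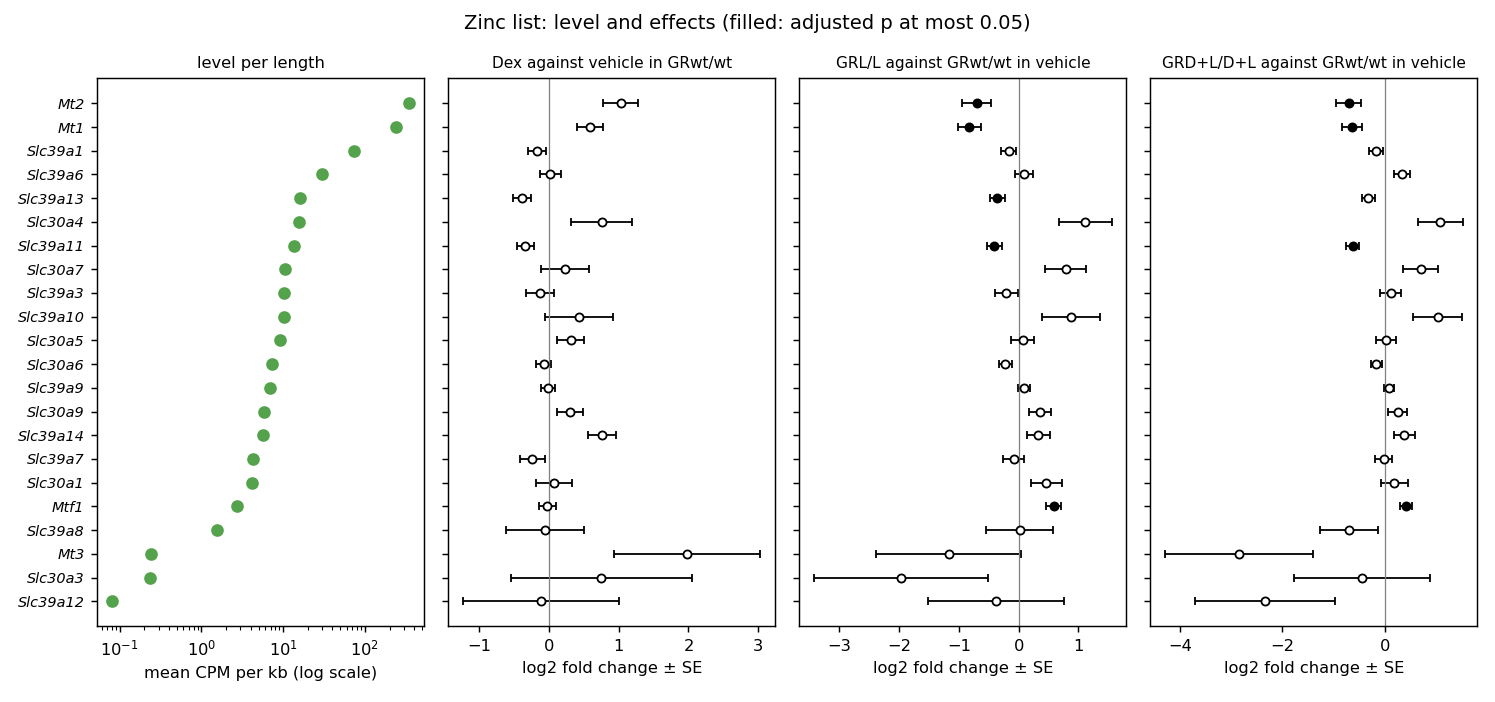
The 22 tested zinc genes (vertical axis), ordered by mean CPM per kb of exon (left panel, log axis), with their LFC and SE in GRwt/wt with Dex, GRL/L vehicle and GRD+L/D+L vehicle (other panels, horizontal axes of different span); filled points have an edgeR adjusted p of at most 0.05. Mt2 and Mt1, at 351 and 239 CPM per kb, are the highest of the list, in the reverse order by spliced length of the principal transcript, and no gene of it is filled in the Dex panel.

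Of 3 further genes known to depend on MTF1, Gclc, Slc39a10 and Selenow, Gclc alone was called with Dex in GRwt/wt, where 0.159% of all tested genes were. Gclc encodes the catalytic subunit of the enzyme that starts glutathione synthesis. It was at 27.1, 39.1 and 37.0 CPM in vehicle and rose to 97.8, 58.5 and 74.2 CPM with Dex (LFC 1.16, SE 0.22, adjusted p = 0.0311, edgeR), without overlap. Slc39a10 had an LFC of 0.43 (adjusted p = 0.694) and Selenow of -0.22 (adjusted p = 0.710). In the mutants the Dex LFC of Gclc was -0.16, 0.04 and 0.07 (D, L and D+L), and its differences from GRwt/wt, -1.32, -1.12 and -1.09, had adjusted p-values of 0.688, 0.785 and 0.965 in edgeR, while DESeq2 called that of GRD/D (adjusted p = 0.0488) among 0.0635% of all tested genes. In vehicle, Gclc had LFCs of 0.73 (adjusted p = 0.0240) in the L mutant and 0.70 (adjusted p = 0.0339) in the D+L mutant, where 23% and 20.4% of all genes passed the adjusted p. These were lost with only the genotypes compared (adjusted p = 0.0945 and 0.101), without GRwt/wt vehicle replicate 1 (0.0765 and 0.0858), under the GC and length correction in the L mutant (0.0591) and under upper-quartile scaling in the D+L mutant (0.0673). They were also lost without replicate 1 or 3 of GRL/L vehicle (0.0619 and 0.118) and without any single vehicle library of the D+L mutant (0.0581 to 0.0849). The call with Dex was lost under upper-quartile scaling (adjusted p = 0.0598), under the GC and length correction (adjusted p = 0.0795) and without GRwt/wt Dex replicate 1 (LFC 0.97, adjusted p = 0.105) or replicate 3 (adjusted p = 0.0793). Without GRwt/wt vehicle replicate 1 its adjusted p was 0.0510, and without either GRD/D vehicle library, GRL/L vehicle replicate 1 or GRL/L Dex replicate 1 it was 0.0525 to 0.0548. Over all alternatives it ran from 0.000171 to 0.970, the highest value with only the GRwt/wt libraries fitted.

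Of 10 genes of the response to metals and oxidants, Gclc was the only 1 called with Dex in GRwt/wt, where 0.159% of all genes were, and the list median was -0.22 against -0.01 over all genes. In the D, L and D+L mutants the list median with Dex was -0.28, -0.03 and -0.05, against 0.0030, -0.0033 and 0.0014 over all genes. In GRwt/wt, the other named genes of the list had LFCs below 0. There, heme oxygenase, Hmox1, had an LFC of -0.45 (adjusted p = 0.398) and the glutamate-cysteine ligase modifier Gclm of -0.20 (adjusted p = 0.728), both named after their values were seen. Of 10 copper genes, 9 were tested, and edgeR and DESeq2 called 0 of them with Dex in any genotype, with 1 at an unadjusted p under 0.05 in GRwt/wt and 0 in each mutant.

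Across the 23 libraries the levels of Mt1 and Mt2 followed each other, with a Spearman correlation of 0.901. Mt1 ran against Mtf1 (-0.74) and Slc30a1 (-0.63), Mt2 did so against Mtf1 (-0.64) and less against Slc30a1 (-0.38), and Mtf1 and Slc30a1 ran together (0.67). These correlations are descriptions, since libraries of a group share genotype and treatment. They were taken without the GC content and length correction. Under it the vehicle LFCs of Mtf1 and Slc30a1 in the L and D+L mutants were below 0, as was the median of all genes. Whether the opposed courses remain under it was not tested. The genes most like Mt1 were Tpst2 (0.934), Ndrg1 (0.928), Chchd5 (0.922), Cdk2ap2 (0.918) and Hibadh (0.915). For Mt2 they were Smim8 (0.912), Mt1, Ccpg1os (0.895), Aldh4a1 (0.893) and Mrgprf (0.887). By Pearson correlation Mt2, at 0.953, was closer to Mt1 than any of these 5 genes, of which Hibadh was the closest at 0.904. For Mtf1 they were Usp31 (0.905), Trim33 (0.903), Gm12905 (0.895), Med1 (0.894) and Lcor (0.894), and for Slc30a1 Galnt7 (0.859), Etv3 (0.846), Tgs1 (0.842), Ddx60 (0.836) and Katnbl1 (0.835). Pearson correlations of these pairs ran from 0.641 to 0.953.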

How the data were processed

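The authors deposited raw counts of uniquely mapped reads per Ensembl gene, made from TruSeq libraries with HISAT2 2.1.0 on mm10 and featureCounts 2.0.0. The annotation release and strand setting were not given in the sources used here. Symbols came from GENCODE annotation of GRCm38, which held 55227 of the 55487 identifiers. Totals were 16452539 to 23117080 counts per library, and intervals cover counting error only. Groups followed the labels.

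The counts as deposited were tested in edgeR 4.0.16 (R 4.3.3) by quasi-likelihood, with 1 mean per group over all 23 libraries, TMM scaling, filterByExpr, a prior count of 0.125 and Benjamini-Hochberg adjustment. The SE is the LFC over the root of F. The test was run on simulated counts with 1 mean per gene, apart from genes changed on purpose. These had no outlier library, GC effect or genotype difference, so that check does not cover such features of these data. Named were the 4 genes, Fkbp5, Tsc22d3, zinc genes called or highest per length, the 5 genes most correlated with each, and companion genes called with Dex. The members and lists were chosen with earlier results of these data known. Alternatives were RLE and upper-quartile scaling, other filters, prior count or call rule, DESeq2 1.42.0, only the genotypes compared, a GC content and length correction, a replicate block, and leaving out each library. Equally numbered vehicle and Dex libraries deviated together in GRL/L (correlations 0.261, 0.576 and 0.559) and GRD+L/D+L (0.849, 0.738 and 0.553), but not throughout in the other genotypes.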

Additional observations from a re-analysis of the deposited data

How the results depend on the processing

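Leaving out each library in turn, the LFC of Mt2 with Dex ran from 0.77 to 1.28 in GRwt/wt, from -0.12 to 0.12 in GRL/L, from -0.29 to 0.0074 in GRD+L/D+L, and that of Mt1 from -0.075 to 0.082 in GRL/L. In vehicle, Mt1 ran from -0.18 to 0.14 in GRD/D and from -0.80 to -0.48 in GRD+L/D+L, Mt2 from -0.85 to -0.46 and from -0.84 to -0.45 in the L and D+L mutants, and Mtf1 from 0.35 to 0.59 in GRD+L/D+L. With Dex, Mtf1 ran from -0.11 to 0.13 in GRwt/wt and from -0.12 to 0.16 in GRD/D, and its differences from -0.12 to 0.16 in GRD/D and from -0.22 to 0.022 in GRD+L/D+L. Slc30a1 ran from -0.26 to 0.52, -0.14 to 0.0063, -0.080 to 0.034 and -0.14 to 0.18 with Dex in GRwt/wt and the D, L and D+L mutants. Its differences ran from -0.59 to 0.18, -0.53 to 0.25 and -0.50 to 0.27, and its vehicle LFCs from -0.13 to 0.64, 0.14 to 0.92 and -0.12 to 0.65 in the D, L and D+L mutants. Zinc genes called ran from 0 to 1 with Dex in GRwt/wt (Mt2 without GRwt/wt vehicle replicate 2 and Slc39a14 without GRwt/wt Dex replicate 1), 0 to 4 in GRL/L vehicle and 0 to 2 in GRD+L/D+L vehicle. Over libraries left out, 34 results of Mt2 in vehicle lost the threshold (adjusted p up to 0.173 in the L and 0.184 in the D+L mutant). In GRD+L/D+L vehicle Mt1 lost it without GRwt/wt vehicle replicate 1 (0.0597) or 2 (0.0864), or with replicate 1 (0.0971) or 2 (0.0723) of its own group left out, and Mtf1 with replicate 1 of that group left out (0.0557).

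With DESeq2, Mt2 in GRwt/wt was 1.05 and Mt1 0.61, both past the threshold. Mt1 in GRD/D vehicle changed sign to 0.026 with RLE scaling, 0.038 with no expression filter, 0.053 with at least 10 counts in every library, 0.026 with DESeq2, 0.46 with the GC and length correction and 0.013 with only the genotypes compared. Under that correction vehicle LFCs were -0.50 and -0.23 for Mt1 and -0.10 and -0.040 for Mt2 in the L and D+L mutants, and -0.15, -0.15 and -0.22 for Mtf1 and -0.16, -0.30 and -0.31 for Slc30a1 in the D, L and D+L mutants. It also changed the sign of the LFC of Mtf1 with Dex in GRL/L, to 0.049, of its differences, to 0.47 (L) and 0.22 (D+L), and of Slc30a1 with Dex, to -0.14 in GRwt/wt, 0.23 in GRL/L, -0.043 in GRD+L/D+L, with differences of 0.026, 0.37 and 0.093. Mt1 in GRD+L/D+L vehicle lost the threshold with no filter (-0.58) and with only the genotypes compared (-0.59). Mt2 lost it in GRL/L with RLE scaling (-0.67), no filter (-0.69), at least 10 counts (-0.65) and only the genotypes compared (-0.70), and in GRD+L/D+L likewise (-0.67, -0.65, -0.66 and -0.66). Mtf1 in GRD+L/D+L lost it with upper-quartile scaling (0.29), no filter (0.47) and only the genotypes compared (0.46), and with at least 10 counts it changed sign with Dex in GRwt/wt (0.011) and in the difference for GRD/D (-0.00081). The number of zinc genes called was 1 with DESeq2 for Dex in GRwt/wt (Mt2) and GRL/L vehicle (Slc30a4), 1 with the correction in GRD+L/D+L vehicle (Slc39a8), and 5 and 4 by adjusted p alone in vehicle of the L and D+L mutants. The log2 ratio of Mt2 to Mt1 per length changed sign to -0.42 with the spliced length of the principal transcript, chosen after seeing the data. The cause of the other changes was not tested.

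The replicate numbers did not pair the GRwt/wt libraries throughout (correlations 0.525, 0.00732 and -0.0452) nor those of GRD/D (0.238 and -0.168). With the replicate block, Mt2 with Dex in GRwt/wt was 1.04 (adjusted p = 0.00195) and Mt1 0.62 (adjusted p = 0.0309), and the differences of Mt2 were -1.34, -1.04 and -1.18 (adjusted p = 0.0191, 0.0287 and 0.0179 in edgeR). Under this pairing 1 zinc gene, Mt2, was called in GRwt/wt and in each difference, Mtf1 changed sign with Dex in GRD/D (-0.021) and in its difference (-0.0040), and Slc30a1 with Dex in GRD/D (0.0048). It changed no other call of the 4 genes.

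Over all genes, 25 were called with Dex in GRwt/wt, against 286 with DESeq2, 199 with the block, 75, 374 and 95 without GRwt/wt vehicle replicate 1, 2 and 3, and 0 with only GRwt/wt. In vehicle, 777 were higher and 448 lower in GRL/L, with 570 and 741 in GRD+L/D+L, against 331 and 737, and 257 and 858, with the GC and length correction. With upper-quartile scaling these were 706 and 795, and 501 and 1075, and without GRwt/wt vehicle replicate 3 they were 1917 and 757, and 1354 and 649. Upper-quartile scaling put the median of all genes at -0.17 and -0.19 there. The lowest count behind a value of the 4 genes was 166, for Slc30a1 in GRwt/wt vehicle replicate 1.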

Other observations

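Copper is another metal held by metallothioneins, and 2 genes that handle it, Atp7a and Cox17, were higher by adjusted p in the L and D+L mutants than in GRwt/wt without Dex. Atp7a, the copper pump of the secretory pathway, was at 14.6 ± 13.6 CPM in GRwt/wt vehicle (n = 3) and 58.3 ± 8.20 CPM in GRL/L vehicle (n = 3), with an LFC of 2.00 (adjusted p = 0.0311, edgeR). In GRD+L/D+L vehicle it was at 55.1 ± 12.8 CPM (n = 3), with an LFC of 1.92 (adjusted p = 0.0408, edgeR). Its lowest value, 0.717 CPM, was in the GRwt/wt vehicle group. Cox17, the copper chaperone of mitochondria, was called in the L mutant (4.21 ± 1.83 against 8.94 ± 1.25 CPM, n = 3 each, LFC 1.08, adjusted p = 0.00724, edgeR) and passed the adjusted p in the D+L mutant (LFC 0.96, adjusted p = 0.0175, edgeR). Alternatives for both genes, and those for Slc39a14, were chosen after seeing the data. Without GRwt/wt vehicle replicate 1, the LFC of Atp7a was 1.44 (adjusted p = 0.00435, edgeR) and 1.37 (adjusted p = 0.00670, edgeR) in the L and D+L mutants, and without GRwt/wt vehicle replicate 2 it did not pass (adjusted p = 0.0600 and 0.0721, edgeR). The same was so for Atp7a without any single vehicle library of the mutant compared (adjusted p = 0.0554 to 0.0931, edgeR). In the D+L mutant it was also so without either GRD/D vehicle library, replicate 1 or 3 of GRD/D Dex, or any library of the L mutant (adjusted p = 0.0506 to 0.0560, edgeR). The lowest Cox17 value, 2.21 CPM, was in GRwt/wt vehicle replicate 1, without which its LFC was 0.78 (adjusted p = 0.0115, edgeR) in the L mutant, under the LFC of 1 that a call needs, and 0.67 (adjusted p = 0.0256, edgeR) in the D+L mutant. Under the GC content and length correction neither gene passed in either mutant (Atp7a adjusted p = 0.0505 and 0.0563, Cox17 0.144 and 0.130, edgeR), and without its vehicle replicate 3 Cox17 in the D+L mutant had an adjusted p of 0.0811 in edgeR. With only the genotypes compared in the fit, Atp7a (adjusted p = 0.129 and 0.222, edgeR) and Cox17 in the D+L mutant (adjusted p = 0.139, edgeR) did not pass. Of the 9 tested copper genes, 2 (L) and 1 (D+L) were called, and 4 and 2 were lower by adjusted p alone, a rule that 23% and 20.4% of all tested genes passed in either direction. The 2 genes were named after their values were seen, and 7.78% and 8.32% of all tested genes were called in these comparisons.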
